A study of Mus musculus with 11 samples.

Results

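The miR-30 family was examined in the small RNA libraries of mouse spermatogonial progenitor cells (SPCs), germ cells that can be kept in culture and can restore spermatogenesis after transplantation. Its members were all entries whose name has the stem miR-30a, miR-30b, miR-30c, miR-30d or miR-30e, with either arm of the hairpin. The rule took 11 of the 1096 mature miRNAs listed, namely 5 guide strands from the 5p arm and 6 passenger strands from the 3p arm. The labels describe both libraries as SPCs from the testis of C57BL/6 mice at postnatal day 6. The methods instead name B6;129S-Gt(Rosa)26Sor/J mice as the source of the cultures and give a range of ages from day 6 upward. They describe the SPCs as long-term cultures. Control SPCs carried the empty lentiviral vector (Mov10 Vector, here shVector), and the second group carried a lentiviral shRNA against Mov10 (Mov10 knockdown). Both groups were transduced with lentivirus and grown on feeder layers of inactivated STO cells, a line of mouse embryonic fibroblasts, so that feeder RNA of the same species can be present in either library. Each group was sequenced as 1 library. The methods speak of triplicate samples for them without saying whether these were pooled, and every interval given here covers counting error only.

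miRNAs are cut from hairpin precursors by DROSHA and DICER. The guide strand of the duplex is loaded into Argonaute, where bases 2 to 8, the seed, pair with target mRNAs, and the passenger strand is mostly degraded. The miR-30 family is a conserved family whose members share the seed and differ further towards the 3′ end, and it is known for repressing Snai1, a driver of the epithelial to mesenchymal transition, and Becn1, a gene of autophagy. MOV10 is an RNA helicase that associates with Argonaute complexes, and the comparison of knockdown with control SPCs asks what its loss does to mature miRNAs.

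The RefSeq table for GRCm38.p6 gave a mature sequence for 7 of the 11 members, and miR-30b and miR-30d are given by name. The guide strands are shown because their seed, in capitals, is what places them in 1 family, and because reads were assigned without mismatch, which makes the remaining bases decide the member.
miR-30a-5p: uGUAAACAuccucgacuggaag
miR-30e-5p: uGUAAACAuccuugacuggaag
miR-30c-5p: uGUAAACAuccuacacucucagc

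The 3 guide strands shown are identical over their first 12 bases. Counted from the 5′ end, miR-30a-5p and miR-30e-5p differ by the single change C13U, so that 1 base separates the entries with 281900 and 160405 reads in control SPCs. These 4 passenger strands are shown because they fall into 2 seed groups and because those of miR-30c, unlike miR-30c-5p, tell the 2 loci of miR-30c apart.
miR-30a-3p: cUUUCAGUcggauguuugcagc
miR-30e-3p: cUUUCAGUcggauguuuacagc
miR-30c-1-3p: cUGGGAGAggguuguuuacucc
miR-30c-2-3p: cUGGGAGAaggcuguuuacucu

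The passenger strands of miR-30a and miR-30e differ by G18A. Those of miR-30c-1 and miR-30c-2 differ by G9A, U12C and C22U, outside the seed. The hairpins they come from are printed with both mature forms in capitals.
Mir30a: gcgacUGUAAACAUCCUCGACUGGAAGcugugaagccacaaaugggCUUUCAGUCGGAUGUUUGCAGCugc
Mir30c-2: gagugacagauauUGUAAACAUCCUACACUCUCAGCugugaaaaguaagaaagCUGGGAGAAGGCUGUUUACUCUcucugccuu
Mir30c-1: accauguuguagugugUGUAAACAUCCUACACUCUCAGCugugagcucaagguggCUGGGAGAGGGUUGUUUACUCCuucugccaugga
Mir30e: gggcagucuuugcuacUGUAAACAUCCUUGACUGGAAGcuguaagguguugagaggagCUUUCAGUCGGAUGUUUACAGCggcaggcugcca

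The family occupies 3 pairs of neighbouring hairpins in GRCm38. Mir30a (chr1:23272269-23272339, plus strand) lies in no other gene of GENCODE vM21 on its strand, and 19361 bases separate it from Mir30c-2 (chr1:23291701-23291784, plus strand), which lies in an exon of the noncoding gene Gm27028. Mir30c-1 (chr4:120769534-120769622, minus strand) and Mir30e (chr4:120772606-120772697, minus strand) are 2983 bases apart, both in introns of Nfyc, which encodes a subunit of the CCAAT-binding factor NF-Y. Mir30b and Mir30d are neighbours on chromosome 15, with 3697 bases between them. The deposited entry for miR-30c-5p joins the identical guide strands of Mir30c-1 and Mir30c-2.

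The control library held 9628835 reads on miRNAs and the knockdown library 2794593. The deposited TPM is the number of reads per 1000000 reads of a library total that was 10518277 in control SPCs and 3194363 in knockdown SPCs, so that 1 read was worth 0.0951 and 0.313 TPM. The fewest reads on any member were 720 in control SPCs and 95 in knockdown SPCs, far above 3 reads, the smallest level taken as detectable (0.285 and 0.939 TPM). Among all 607 miRNAs above 1.5 TPM in at least 1 library, the median log2 fold change, taken here as log2 of (TPM + 0.1) in knockdown SPCs over (TPM + 0.1) in control SPCs, was -0.37. Depletion of Mov10 mRNA cannot be checked in small RNA libraries. In libraries of whole cultures, fewer cells of a type and less RNA per cell cannot be told apart.

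miR-30 guide strands were among the most abundant miRNAs of SPCs. Together they took 694698 of the miRNA reads of the control (7.21%, 95% Wilson interval 7.20 to 7.23%) and 183386 of those of the knockdown (6.56%, 6.53 to 6.59%). The most abundant member, miR-30a-5p, was at 26801 TPM in control SPCs and 28709 TPM in knockdown SPCs, and it ranked 8 and 6 among all miRNAs by reads. miR-30d-5p was at 18088 TPM in control SPCs, where it ranked 13, and at 10148 TPM in knockdown SPCs, where it ranked 23. miR-30e-5p stood at 15250.1 and 14036 TPM and ranked 17 and 15. The 2 lower guide strands were miR-30c-5p, with 4557 and 3318 TPM, and miR-30b-5p, with 1351 and 1198 TPM.

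The order of the guide strands was therefore a, d, e, c, b in control SPCs and a, e, d, c, b in Mov10 knockdown SPCs. Counting error separated every pair of neighbours in both orders. The only exchange was between miR-30d-5p and miR-30e-5p. In the control there were 1.19 miR-30d-5p reads for each miR-30e-5p read, and in knockdown SPCs 0.723, a log2 change of -0.71 (95% interval -0.74 to -0.69) that does not depend on the library totals.

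The passenger strands of miR-30a, miR-30b, miR-30d and miR-30e were less abundant than the guide strand of the same hairpin in both libraries, and those of miR-30c-1 and miR-30c-2 were below the joint entry of their guide strand. miR-30e-3p was the highest, with 1679 TPM in control SPCs and 1383 TPM in knockdown SPCs, followed by miR-30a-3p with 779.9 and 780.4 TPM. miR-30c-2-3p had 126.5 TPM in both libraries. miR-30d-3p had 106.1 and 103.9 TPM, miR-30c-1-3p 101.2 and 55.4 TPM, and miR-30b-3p 68.5 and 29.7 TPM. The order e, a, c-2, d, c-1, b was the same in both libraries, but the levels of miR-30d-3p and miR-30c-1-3p in control SPCs, and of miR-30c-2-3p and miR-30d-3p in knockdown SPCs, had overlapping counting intervals.

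**Figure D1:**
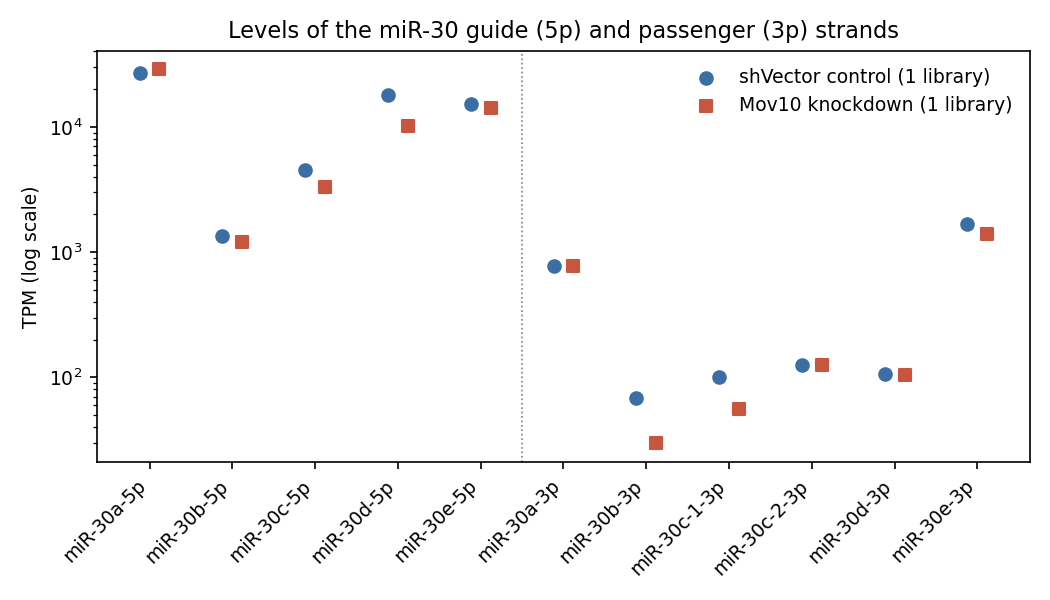
Level of each miR-30 guide (5p) and passenger (3p) strand in TPM on a log axis, with 1 point for the shVector control library and 1 for the Mov10 knockdown library. miR-30d-5p (18088 against 10148 TPM), miR-30c-1-3p (101.2 against 55.4 TPM) and miR-30b-3p (68.5 against 29.7 TPM) show the widest gaps between the libraries.

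Of the 11 members, 3 fell over 1.5-fold in the Mov10 knockdown library and 0 rose over 1.5-fold. For all 607 miRNAs above the minimum, the shares past the same fold were 41.5% lower and 15.8% higher, so that the family's share of lower members was not above that of miRNAs at large. All 11 members passed the minimum of 1.5 TPM in both libraries. Their median log2 fold change was -0.17, against -0.37 for the 607 miRNAs and -0.28 for the 208 miRNAs above 100 TPM in control SPCs. A value below 0 was found for 9 of 11 members and for 64.4% of the 607 miRNAs.

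miR-30b-3p, the passenger strand of miR-30b, had 720 reads in control SPCs and 95 in knockdown SPCs and the lowest value of the family, a log2 fold change of -1.20 (95% interval -1.53 to -0.89). miR-30c-1-3p had 1064 and 177 reads and fell by 0.87 on the log2 scale (-1.11 to -0.64). miR-30d-5p was the only guide strand past the threshold, with 190253 reads against 32416, at -0.83 on the log2 scale (-0.85 to -0.82). These 3 come from different hairpins, 2 of them as passenger and 1 as guide strand.

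The other guide strands differed less. miR-30c-5p (47931 and 10600 reads) had a log2 fold change of -0.46 (-0.49 to -0.43). miR-30b-5p (14209 and 3826 reads) was at -0.17 (-0.23 to -0.12) and miR-30e-5p (160405 and 44837 reads) at -0.12 (-0.13 to -0.10). miR-30a-5p (281900 and 91707 reads) was the only guide strand with a value above 0, at 0.10 (0.09 to 0.11). Among the passenger strands, miR-30e-3p (17659 and 4419 reads) was at -0.28 (-0.33 to -0.23). The counting intervals of miR-30a-3p (8203 and 2493 reads), miR-30c-2-3p (1331 and 404 reads) and miR-30d-3p (1116 and 332 reads) included 0, with values of 0.0010, -0.00078 and -0.03.

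**Figure D2:**
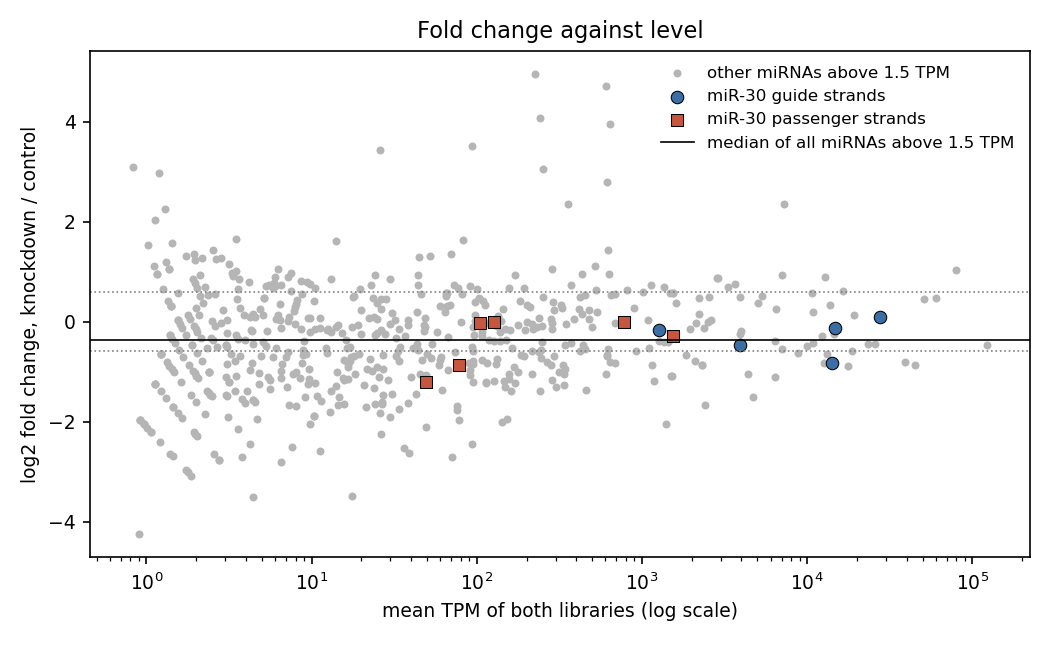
Log2 fold change (knockdown over control) against the mean TPM of both libraries on a log axis for the 607 miRNAs above 1.5 TPM in at least 1 library, with miR-30 guide and passenger strands marked. The black line is the median of all (-0.37) and the dotted lines mark 1.5-fold; 3 miR-30 members lie below the lower dotted line and none lies above the upper one.

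Summed over the 5 guide strands, the family was at 66047 TPM in control SPCs and 57409 TPM in knockdown SPCs, a log2 fold change of -0.20 (-0.21 to -0.19). The sum of the 6 passenger strands gave nearly the same value, -0.21 (-0.24 to -0.17), from 2861 and 2479 TPM. The size of the guide sum depended on single members. Leaving out miR-30d-5p, which was added once the data had been seen, gave -0.021. Leaving out miR-30a-5p, the most abundant guide strand, gave -0.45. The direction depended on the scaling. Scaling by the median ratio of miRNAs shifts every log2 fold change by 0.25, and the guide sum then became 0.050. With the TMM factors of edgeR, a shift of 0.22, it became 0.016. Dividing both libraries by the control's total leaves the ratio of raw reads, which is not corrected for the difference in library totals. That is a shift of -1.72, and the guide sum was then -1.92.

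These scalings moved the single members by the same amounts. The number of members below 0 was 9 with the deposited TPM and 5 under the median ratio or TMM. With raw reads, which are not corrected for the library totals, it was 11 of 11. miR-30b-3p and miR-30c-1-3p stayed over 1.5-fold lower under the median ratio, whereas miR-30d-5p then had a log2 fold change of -0.58 and just missed the threshold. Over all miRNAs, 252 were lower and 96 higher with the deposited TPM, 182 and 144 under the median ratio, 192 and 141 with TMM, and 561 and 10 with raw reads.

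The composition of the family, in contrast, is a ratio within each library and is not touched by its total. Among guide strand reads, miR-30a-5p made up 40.6% in control SPCs (95% Wilson interval 40.5 to 40.7%) and 50.01% in knockdown SPCs (49.8 to 50.2%), which is 9.43 percentage points more (Newcombe interval 9.17 to 9.69). The share of miR-30d-5p was 27.4% (27.3 to 27.5%) in control SPCs and 17.7% (17.5 to 17.9%) in knockdown SPCs, a difference of -9.71 points (-9.91 to -9.51). The shares of the guide strands add up to the whole, so a lower share of miR-30d-5p by itself raises the shares of the others. These differences of opposite sign are therefore not independent of each other. The share of miR-30e-5p was 23.1 and 24.4%, that of miR-30c-5p was 6.90 and 5.78%, and that of miR-30b-5p was 2.05 and 2.09%, whose difference of 0.04 points (-0.03 to 0.12) was within counting error.

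Among passenger strand reads, miR-30e-3p made up 58.7% in control SPCs and 55.8% in knockdown SPCs, and miR-30a-3p 27.3 and 31.5%. A larger share of miR-30a against miR-30e was thus found on both strands. For the guide strands there were 1.76 miR-30a reads per miR-30e read in control SPCs and 2.05 in knockdown SPCs, a log2 change of 0.22 (0.20 to 0.24), and for the passenger strands 0.465 and 0.564, a log2 change of 0.28 (0.20 to 0.36). The intervals of these 2 changes overlapped.

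**Figure D3:**
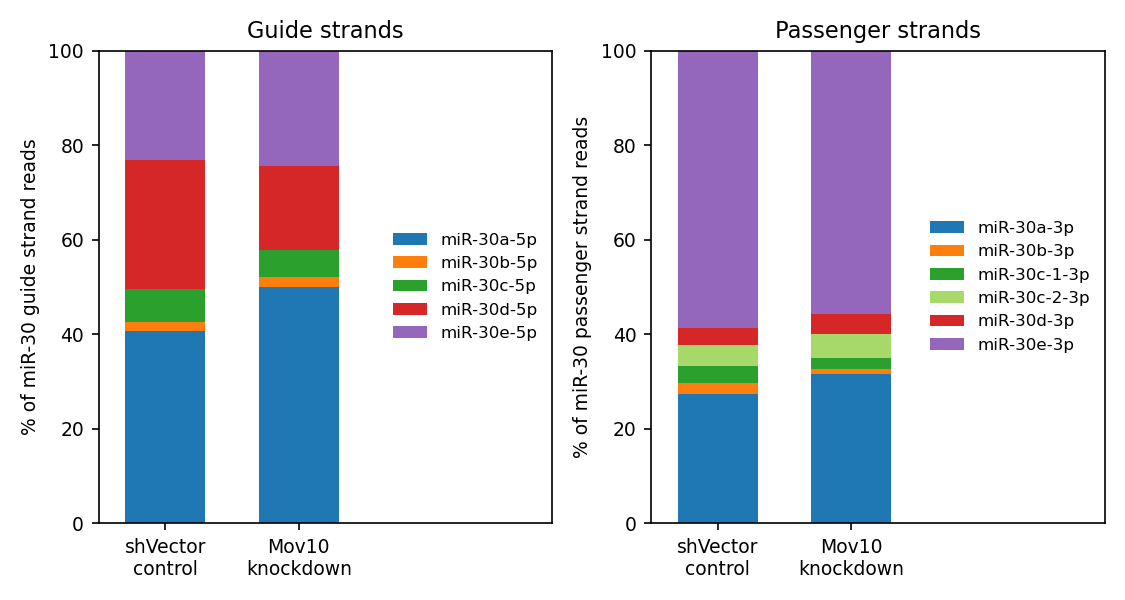
Share of each member in the miR-30 guide strand reads (left) and passenger strand reads (right), in percent, with 1 stacked bar per library. miR-30a-5p takes 40.6% of the guide reads in control SPCs and 50.01% in knockdown SPCs, and miR-30d-5p 27.4 and 17.7%.

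The 5p arm was the major arm of mir-30a, mir-30b, mir-30d and mir-30e, and of the 2 mir-30c hairpins as a sum. Over the family, guide strands made up 95.8% of miR-30 reads in control SPCs (95.80 to 95.89%) and 95.9% in knockdown SPCs (95.77 to 95.95%), a difference of 0.01 points (-0.09 to 0.11) that was within counting error. Single hairpins ranged widely. In the control there were 170 guide reads per passenger read for mir-30d, 34.4 for mir-30a and 19.7 for mir-30b. There were 20.0 for the 2 mir-30c hairpins together and 9.08 for mir-30e, the lowest of these ratios. The major arm held 95.2% of the reads of the median miR-30 hairpin in control SPCs. For the 117 other hairpins or groups of hairpins with at least 100 reads on each arm, summed over both libraries, the median was 86.9%. This minimum leaves out hairpins with very few reads on either arm, however many are on the other. An example is mir-143, with 193134 reads on miR-143-3p and 30 on miR-143-5p in control SPCs, and 64247 and 9 in knockdown SPCs. The 86.9% therefore describes only hairpins that pass the minimum. Whether miR-30 hairpins are more one-sided than miRNA hairpins at large was not tested.

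Between the libraries, the balance of the arms changed in opposite directions for mir-30b and mir-30d, the neighbours on chromosome 15. For mir-30b there were 19.7 guide reads per passenger read in control SPCs and 40.3 in knockdown SPCs, a log2 change of 1.03 (0.72 to 1.34). For mir-30d the ratio was 170 in control SPCs and 97.6 in knockdown SPCs, a log2 change of -0.80 (-0.98 to -0.63). The first came with a lower passenger strand and the second with a lower guide strand.

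The other hairpins changed little in this ratio. The log2 change was 0.16 (0.11 to 0.21) for mir-30e, 0.10 (0.03 to 0.16) for mir-30a and -0.13 (-0.27 to 0.0008) for the mir-30c hairpins. A change over 0.5 on the log2 scale was thus found for 2 of 5 miR-30 hairpins, and 41.0% of all 122 had one, so that changes of this size were common in these libraries. The absolute change had a median of 0.16 over the miR-30 hairpins and of 0.42 over the 117 others. Some of the 117 had few reads and thus more counting error. For mir-291b, with 18 reads on 5p and 16 on 3p in knockdown SPCs, the interval ran from -1.58 to 0.48. By size of the change, mir-30b ranked 14 and mir-30d 29 of 122.

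**Figure D4:**
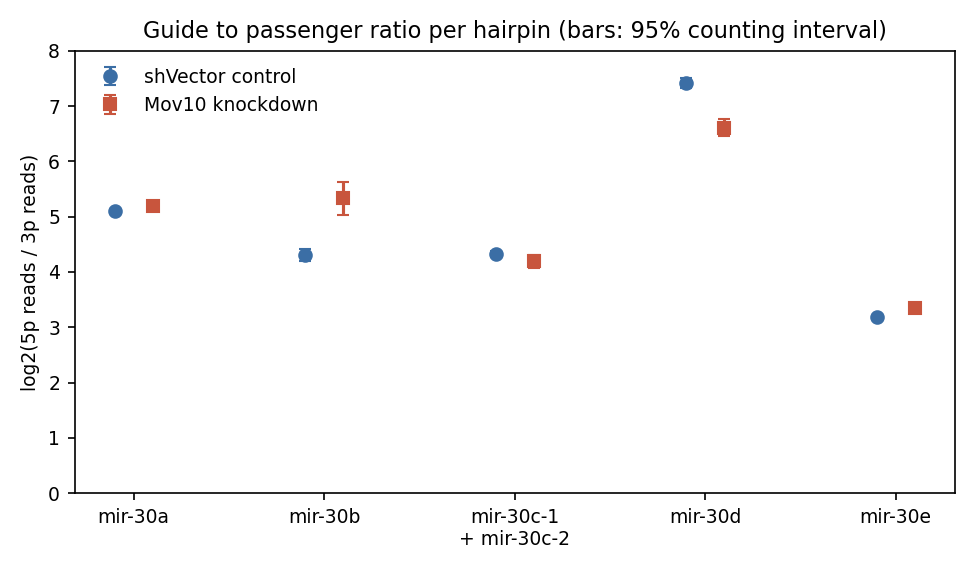
Log2 of the ratio of guide (5p) to passenger (3p) reads for each miR-30 hairpin, with the 2 mir-30c hairpins as 1 point, in the control and knockdown libraries, with 95% counting intervals as bars. The ratio of mir-30b is higher and that of mir-30d lower in knockdown SPCs, and the other 3 points shift by at most 0.16.

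The 2 miR-30c loci, which share the guide strand, could be followed by their passenger strands. miR-30c-2-3p, from chromosome 1, had 1331 and 404 reads, and miR-30c-1-3p, from the Nfyc intron, had 1064 and 177 reads. Mir30c-1 thus gave 44.4% of the miR-30c passenger reads in control SPCs (42.4 to 46.4%) and 30.5% in knockdown SPCs (26.9 to 34.3%), a log2 change of the ratio of -0.87 (-1.15 to -0.59). How many miR-30c-5p reads came from either locus cannot be read from the joint entry.

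Members of 1 pair of hairpins were then set side by side. On chromosome 1, the passenger strands of Mir30a and Mir30c-2 kept the ratio of 0.162 in both libraries, a log2 change of -0.0018 (-0.17 to 0.17). The 3 values from these hairpins alone lay between -0.00078 and 0.10, while miR-30c-5p, the joint entry of Mir30c-2 and Mir30c-1, was at -0.46. In the Nfyc introns, miR-30e-5p, miR-30e-3p and miR-30c-1-3p had values of -0.12, -0.28 and -0.87. There the passenger strand of Mir30c-1 was lower in relation to that of Mir30e, with 0.0603 and 0.0401 reads per miR-30e-3p read, a log2 change of -0.59 (-0.82 to -0.35). For Mir30b and Mir30d, the change of the ratio of the 2 was 0.66 (0.61 to 0.71) on the guide strands and -1.17 (-1.53 to -0.82) on the passenger strands. Levels of the host transcripts were not analysed here.

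**Figure D5:**
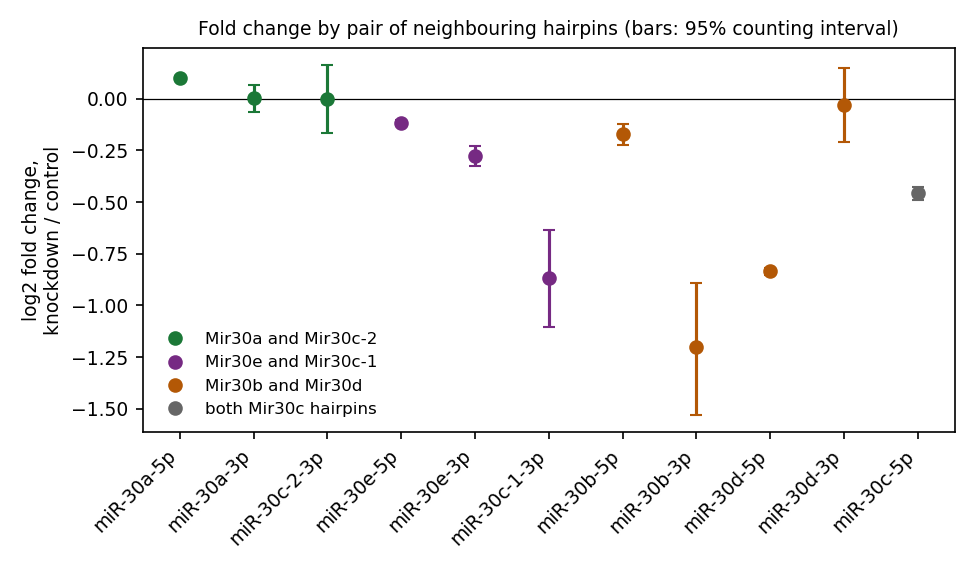
Log2 fold change (knockdown over control) of each miR-30 member with its 95% counting interval, coloured by pair of neighbouring hairpins. The 3 members from Mir30a and Mir30c-2 alone lie near 0, and those from Mir30e and Mir30c-1 alone spread from -0.12 to -0.87. Those from Mir30b and Mir30d spread from -0.03 to -1.20, and miR-30c-5p, the joint entry of both Mir30c hairpins, is at -0.46.

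The miR-30 guide strands were set beside those of 3 other broadly expressed families. The 9 let-7 and miR-98 guide strands, which repress Lin28 and are low in undifferentiated pluripotent cells, summed to 21421 TPM in control SPCs and 35656 in knockdown SPCs, a log2 fold change of 0.74, and 6 of 9 rose over 1.5-fold, against 15.8% of the 607 miRNAs. All 3 miR-29 guide strands, known for repressing collagens and DNA methyltransferases, rose, with values from 0.68 to 0.71. The 2 miR-26 guide strands were at -0.58 and -0.25, and neither passed 1.5-fold. The miR-30 guide strands ran from -0.83 to 0.10. Mixed values within a family were also found elsewhere, as for miR-181a-5p (0.62), miR-181b-5p (0.57), miR-181c-5p (-0.03) and miR-181d-5p (-0.59), which were looked up after the values were seen.

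Markers of cell types were measured in the same libraries. All 10 mesenchymal miRNAs of the miR-143, miR-145, miR-199 and miR-214 groups, which the STO feeders may supply, were above the minimum, with a summed level of 27675 TPM in control SPCs and 32318 TPM in knockdown SPCs; 1, miR-199b-5p, rose over 1.5-fold and 0 fell. A list of 9 strands of the miR-290 cluster, which marks pluripotent and early germ cells, summed to 1933 and 1195 TPM, and 7 of 9 were over 1.5-fold lower. The list leaves out other strands of the cluster, of which miR-292b-3p (9.22 and 9.70 TPM), miR-292b-5p (9.51 and 10.02 TPM) and miR-294-5p (3.04 and 3.13 TPM) were not lower. The 5 blood cell miRNAs summed to 175.7 and 34.7 TPM. Of these, 3 of 5 were above the minimum and 2 were over 1.5-fold lower, the 2 arms of miR-142a. This list leaves out miR-155-5p (100.2 and 95.5 TPM) and miR-155-3p (1.33 and 3.76 TPM), neither of which was over 1.5-fold lower. It also leaves out miR-142b, which was lower (19.2 and 3.13 TPM). These counts stand beside 41.5% lower and 15.8% higher among the 607 miRNAs. No marker was at 0 in either library. However, miR-290a-3p and miR-451a had 1 read each in knockdown SPCs, below the 3 reads taken as detectable. The part of these differences in the miR-30 values was not tested.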

How the data were processed

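Small RNA-seq of shVector control and Mov10 knockdown SPCs was used, 1 library each. RNA-seq and CLIP-seq of the series were not analysed here. The authors filtered rRNA, trimmed adaptors and mapped reads to miRBase in CLC Genomics Workbench, allowing no mismatch. The authors deposited raw read counts per mature miRNA. The authors also deposited TPM, which is reads per 1000000 of 1 library total, without length correction. How reads shared by hairpins were assigned is not given in the sources used here.

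The members and lists were chosen with earlier results of these data known. With 1 library per group no test against replicates is possible, and edgeR 4.0.16 gave TMM factors only. Ratios carry exact conditional binomial (Clopper-Pearson) 95% intervals, shares Wilson and differences of shares Newcombe intervals; changes of a ratio carry normal intervals on the log scale. Reads have no molecular identifiers. Calls were changes over 1.5-fold above 1.5 TPM in the higher library, with 0.1 TPM added. Arms were summed over hairpins that share a mature form. The calculations were tested on simulated data. Genes named were the members, miRNAs with their guide seed, the miRNA nearest in level to each guide strand, and 3 families for comparison. Other scalings, pseudocounts, minima and sums were tried. Python 3.11.15, pandas 2.3.3, scipy 1.17.1 and R 4.3.3 were used.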

Additional observations from a re-analysis of the deposited data

How the results depend on the processing

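No paired analysis was possible because there is 1 library per group. The sum of guide strands was -0.20 on the log2 scale with the deposited TPM, -0.14 per reads on miRNAs, 0.050 with the median ratio, 0.016 with TMM and -1.92 as a ratio of raw reads. The passenger sum was -0.21, and -0.14, 0.046, 0.012 and -1.93. Each change of scaling shifts all values alike. Without the most abundant strand, the sums were -0.45 (guide) and -0.11 (passenger), and the guide sum without miR-30d-5p, chosen after seeing the data, was -0.021. The 3 members over 1.5-fold lower became 11 with raw reads and 1 at 2-fold, and 2 or 3 under the other settings; 0 were higher in any setting run. Of all miRNAs, 252 were lower and 96 higher, 561 and 10 with raw reads, 561 and 186 without a minimum, 157 and 53 above 10 TPM, and 161 and 40 at 2-fold. Without a pseudocount, an addition after seeing the data, they were 253 and 97. The difference in guide strand share was 0.01 points, -0.75 without the most abundant member of each strand, 0.53 as a mean over hairpins and 0.65 without miR-30d (chosen after seeing the data). Guide strands made up 6.60 and 5.74% of the library totals, and 9.47 and 7.32% without the 10 most abundant miRNAs, 1 of which is miR-30a-5p. Adding miRNAs that share a seed to the passenger sum was not run, as none was found among the miRNAs with a sequence, which leaves miR-30b-3p and miR-30d-3p uncompared. The knockdown library was shallower, which widens the intervals of the passenger strands.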

Other observations

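The guide seed of the family was also found in miR-384-5p, among the 908 of 1096 listed miRNAs with a RefSeq sequence. It is shown for comparison, with the seed in capitals.
miR-384-5p: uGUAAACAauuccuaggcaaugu

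miR-384-5p had 47 reads in control SPCs (4.47 TPM) and 11 in knockdown SPCs (3.44 TPM), with a log2 fold change of -0.37 and a counting interval from -1.47 to 0.59. The 5 guide strands of the family had 694698 and 183386 reads. No listed miRNA with a sequence outside the family shared the seeds of the passenger strands of miR-30a and miR-30e or of miR-30c-1 and miR-30c-2.

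miR-30f, a further entry with this family name, is annotated on the plus strand at chr4:120772621-120772642, opposite the 3p arm of Mir30e.
miR-30f: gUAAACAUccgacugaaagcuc

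Its bases 2 to 8, in capitals, are shifted by 1 base against the guide seed. It had 11 reads in control SPCs and 2 in knockdown SPCs, against 17659 and 4419 reads of miR-30e-3p from the other strand. The knockdown value was below the 3 reads taken as detectable, and no fold change is given.

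By levels in the 2 libraries, the miRNA outside the family nearest to miR-30e-5p was miR-25-3p, with 15840 TPM in control SPCs and 13316 TPM in knockdown SPCs, at a distance of 0.09 on the log2 scale. For the others these were miR-26b-5p for miR-30c-5p (distance 0.15), miR-340-5p for miR-30b-5p (0.15), miR-191-5p for miR-30d-5p (0.16) and miR-10a-5p for miR-30a-5p (0.43). miR-191-5p, at 16165 and 10289 TPM, had a log2 fold change of -0.65. Only 2 libraries enter this distance, which is a description of level.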
